A study of Mus musculus with 2 samples.

Results

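The CD300 receptor family is a set of immunoglobulin-domain receptors on the surface of myeloid cells and, for 1 member, of endothelium. The family was followed here through 6 members, Cd300a, Cd300e, Cd300lb, Cd300ld, Cd300lf and Cd300lg, found by their symbols in the gene tables, where they are 6 of 27998 genes. All 6 had unique molecular identifiers (UMIs, 1 per captured transcript) in both libraries. The cells were live CD45+ cells sorted from perigonadal visceral adipose tissue (VAT) of C57BL/6J male mice that had been perfused with saline. All mice, the obese group included, received a high-fat diet (60% of kcal from fat, 0.3% cholesterol) and weekly injections of 5 mg/kg of an antisense oligonucleotide against the low-density lipoprotein receptor for 24 weeks, starting after purchase at 6 weeks of age and 2 weeks of acclimation. The obese group was then harvested, and the group under caloric restriction (CR) was given 70% of its own earlier intake of the same diet for 2 weeks. The diet label of the CR sample reads "Life-long caloric restriction", which differs from the 2 weeks of the methods. Each group is 1 library, and how many mice were pooled in it is not given in the sources used here, so no difference below has a replicate check and none was tested. The CR mice were thus harvested 2 weeks later than the obese mice, and this cannot be told apart from the restriction.

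CD300 receptors bind lipids exposed on dying or activated cells, such as phosphatidylserine, phosphatidylethanolamine and ceramide, and set the threshold for phagocytosis and activation. They fall into inhibitory and activating kinds. Cd300a and Cd300lf carry inhibitory tyrosine motifs that recruit the phosphatases encoded by Ptpn6 and Ptpn11, whereas Cd300lb, Cd300ld and Cd300e have short tails and signal through the adaptors encoded by Tyrobp or Fcer1g. Cd300lg, also known as nepmucin, is an adhesion receptor of vascular endothelium. Adipose tissue after weight loss is a site of lipid release and cell death, where receptors for such lipids on macrophages (MØs) are of interest.

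Of the 6 members, 5 lie together on chromosome 11 (GRCm38, GENCODE), Cd300a at 114890041-114904654 on the plus strand, and on the minus strand Cd300lb at 114922781-114934386, Cd300ld at 114982274-114989922, Cd300e at 115051917-115062177 and Cd300lf at 115116214-115133992. Cd300lg lies apart from this cluster on the same chromosome, at 102041509-102055620 on the plus strand. The sequences upstream of the 5 clustered genes are shown because these neighbours went different ways between the libraries, as described below. They are from RefSeq (GRCm38.p6), read 5′ to 3′ on the strand of each gene, and hold only bases before both the RefSeq and the GENCODE start. The windows are chr11:114889821-114890040 (plus strand) and, on the minus strand, chr11:114934387-114934606, chr11:114989923-114990136, chr11:115062178-115062289 and chr11:115133993-115134212. Capitals mark the motifs described after them.
Cd300a: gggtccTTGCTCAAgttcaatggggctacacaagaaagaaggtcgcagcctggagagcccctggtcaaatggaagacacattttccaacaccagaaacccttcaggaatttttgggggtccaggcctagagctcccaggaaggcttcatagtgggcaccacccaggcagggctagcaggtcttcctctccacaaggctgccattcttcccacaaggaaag
Cd300lb: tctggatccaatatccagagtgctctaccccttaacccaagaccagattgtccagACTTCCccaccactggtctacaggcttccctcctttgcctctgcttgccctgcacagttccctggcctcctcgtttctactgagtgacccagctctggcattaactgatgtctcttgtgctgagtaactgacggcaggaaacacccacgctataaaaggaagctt
Cd300ld: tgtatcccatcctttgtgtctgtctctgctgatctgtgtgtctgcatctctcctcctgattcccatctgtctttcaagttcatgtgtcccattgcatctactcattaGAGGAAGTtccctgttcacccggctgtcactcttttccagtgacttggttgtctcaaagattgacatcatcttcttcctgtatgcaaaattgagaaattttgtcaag
Cd300e: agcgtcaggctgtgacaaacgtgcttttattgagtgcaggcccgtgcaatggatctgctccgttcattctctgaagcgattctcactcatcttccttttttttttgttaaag
Cd300lf: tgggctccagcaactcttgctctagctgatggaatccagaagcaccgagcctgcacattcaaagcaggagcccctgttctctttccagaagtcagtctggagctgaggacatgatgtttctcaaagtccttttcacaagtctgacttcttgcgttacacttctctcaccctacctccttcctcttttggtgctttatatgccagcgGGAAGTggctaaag

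In the 250 bases before the RefSeq start, on both strands, the ETS core GGAAGT was found for Cd300e, Cd300lb, Cd300ld and Cd300lf, and for the neighbouring gene Cd300c2, but not for Cd300a. Of 32851 promoters of the same length, 19.7% held it. The longer PU.1 motif GAGGAAGT, which contains that core, was found for Cd300ld and in 2.44% of promoters, and the C/EBP motif TTGCNNAA for Cd300a and in 9.56%. AP-1 (TGANTCA, 6.75% of promoters) and IRF (GAAA repeated after 2 bases, 2.98%) motifs were found in none of these windows. The match of Cd300e and the ETS match of Cd300ld nearest to its start reach into the GENCODE gene and are not printed, and the ETS core was added to the search after the letters had been seen. A match is a description of letters and not of a bound factor.

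The obese library held 5795 cell barcodes with 42948242 UMIs and the CR library 3562 barcodes with 19696476 UMIs, of which 5262 and 2987 cells were kept. Median depth was 6741 UMIs per kept cell in obese and 4802 in CR, and 28 barcodes occurred in both libraries, 18 of them kept in both. Clusters were formed without any CD300 gene and named by their marker genes, so each class name below stands for a cell like that type. In monocyte and MØ classes of 50 cells or more, 60.9% to 94.2% of cells had a UMI of Ptprc, the gene of CD45, against 43.5% of obese and 13.9% of CR cells in the endothelial class. Levels are given as CPM, the UMIs of a gene per 1000000 UMIs of a class, with exact 95% Poisson intervals. Log2 ratios are of CR over obese after adding 5 CPM to each side. Values written as a fold, and their intervals, have no CPM added. Where levels are low they lie further from no difference than the log2 ratios. Intervals cover counting error only, and the share of all genes whose intervals do not overlap between the libraries was not counted. UMIs were counted at the 3′ end and not divided by length, so levels are compared between classes and libraries and not between genes. A gene is called past 2-fold where that log2 ratio reached 1 in either direction.

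The family did not move as a block between the libraries. Over all MØ classes together, Cd300e and Cd300lf were past 2-fold higher in CR, none of the 6 was past 2-fold lower, and 3.84% of 11522 genes measured there were past 2-fold either way. Over all kept cells, Cd300e, Cd300lf and Cd300lg were past 2-fold higher and Cd300lb lower in CR, beside 5.39% of 13773 genes. In 16 classes that held 50 or more cells of each library (1 of them unnamed), 71 pairs of a member and a class had enough UMIs, of which 18 were past 2-fold higher in CR and 10 lower, against 2.58% higher and 2.03% lower of all 111875 pairs of a gene and a class. Of the 18 higher pairs, 11 were of Cd300e, 5 of Cd300lf and 2 of Cd300lg, and the 10 lower pairs were 5 of Cd300a, 3 of Cd300lb and 2 of Cd300ld. Only Cd300lb in Fcgr4-high MØs was a lower pair of a monocyte or MØ class. The other lower pairs lay in T, NK and B cells, fibroblasts or preadipocytes and migratory dendritic cells. The higher pairs lay in monocyte and MØ classes as well as in others.

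**Figure D1:**
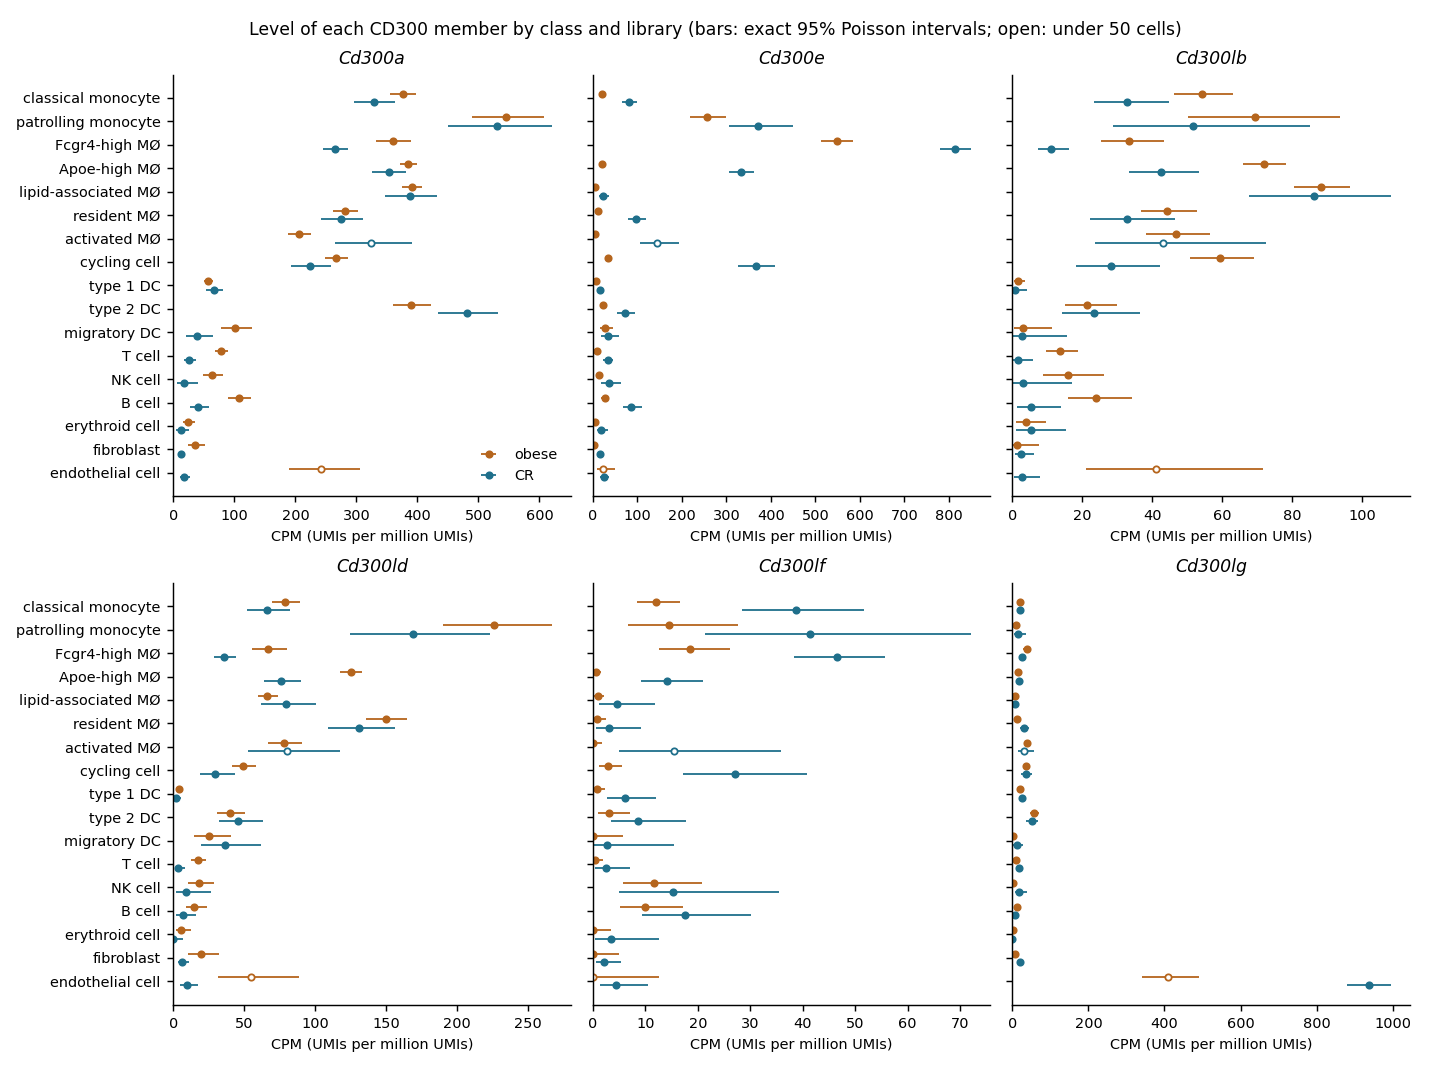
Level of each of the 6 CD300 members (x axis, CPM) in each class of cells (y axis) in the obese and the CR library, with exact 95% Poisson intervals and open symbols where a class held under 50 cells of the library. Cd300e is highest in Fcgr4-high MØs, Cd300lf in these and in both monocyte classes, Cd300a and Cd300ld in patrolling monocytes, Cd300lb in lipid-associated MØs and Cd300lg in the endothelial class, where it stood at 936 CPM in CR.

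Cd300a, the inhibitory receptor for phosphatidylserine, was found in every monocyte and MØ class, with less than 2-fold between the libraries in each that had 50 cells of both. Its level was highest in patrolling monocytes, at 546 CPM in obese (489 to 607) and 530 in CR (450 to 621). Below these in the obese library came lipid-associated MØs (391), type 2 dendritic cells (390), Apoe-high MØs (385), classical monocytes (376) and Fcgr4-high MØs (359), whose neighbours in that order overlapped in their intervals. In CR, type 2 dendritic cells (481) overlapped with patrolling monocytes. Lipid-associated MØs (388), Apoe-high MØs (353), classical monocytes (328), resident MØs (275) and Fcgr4-high MØs (265) came below both, and each of these overlapped the next. Type 1 dendritic cells stood well apart from type 2, at 57.4 CPM in obese and 66.7 in CR. The intervals of these 2 classes did not overlap in either library. Migratory dendritic cells, at 100 CPM in obese (77.3 to 128) and 39.0 in CR (21.3 to 65.4), also lay below type 2, and in CR they overlapped type 1.

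The log2 ratio of Cd300a in monocyte and MØ classes of 50 cells ran from -0.43 in Fcgr4-high MØs to -0.01 in lipid-associated MØs. It was 0.30 in type 2 and 0.20 in type 1 dendritic cells, and over all MØ classes it was -0.17 (350 CPM in obese, 310 in CR). Subtracting from each library the level in its own T cells turned this last value to 0.066. This subtraction, here and below, made no allowance for the depth of the cells, which differed between classes. Calls past 2-fold for Cd300a were made outside these cells. The gene was lower in CR in T cells (78.6 and 25.8 CPM), NK cells (63.6 and 18.2), B cells (107 and 40.7), fibroblasts or preadipocytes (35.5 and 12.05) and migratory dendritic cells. Cd300a also stands in the study's own list of genes of its Phagocytic MØs, which was drawn from these samples and is not independent of them.

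Transcripts of MØs were also found in these lymphocytes, and not all of them differed alike between the libraries. Lyz2, the lysozyme gene of monocytes and MØs, stood in T cells at 17.6% of its level over all MØ classes in obese and 6.42% in CR, and C1qa, a complement gene of MØs, at 18.1% and 6.59%. Cd300a stood at 22.5% and 8.32%, Cd300ld at 16.8% and 4.68%, and Cd300lb at 20.5% and 4.66% of their MØ levels in the same cells. Of the 9 markers of Apoe-high MØs, all 9 were found in T cells of both libraries, at a summed 5477 CPM in obese and 1730 in CR. In B cells Cd300a stood at 30.5% and 13.1%, beside 26.9% and 6.25% for Lyz2 and 19.5% and 18.4% for C1qa. Cd300lb in B cells was at 36.0% and 15.7%, above both genes in obese and between them in CR. In NK cells Cd300a stood at 18.2% and 5.88%, beside 14.0% and 6.27% for Lyz2 and 17.7% and 13.8% for C1qa. The part of free MØ RNA in the lymphocyte levels of these members was not tested. With 3 of 5 measured members lower and Cd300e higher, T cells had 4.96% of all genes past 2-fold, B cells (3 of 6 members past it) 6.55% and NK cells (2 of 3) 6.12%.

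**Figure D2:**
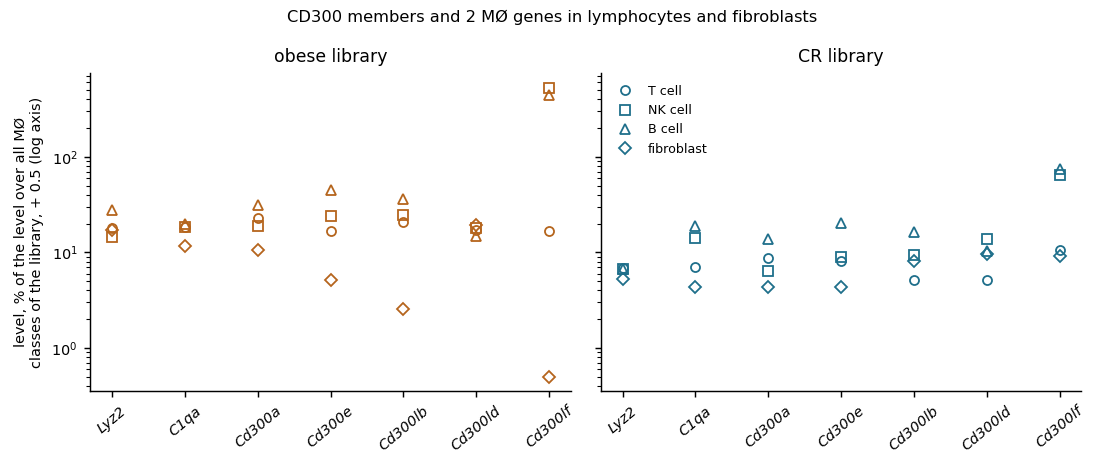
Level of 5 CD300 members and of the macrophage genes Lyz2 and C1qa in lymphocytes and fibroblasts, as a percentage of the level over all MØ classes of the same library plus 0.5, on a log axis (left panel obese, right panel CR). In T cells of the obese library Cd300a, Cd300lb and Cd300ld lie at 16.8% to 22.5%, beside 17.6% for Lyz2 and 18.1% for C1qa, whereas Cd300lf in NK and B cells lies above both genes in each library.

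Cd300lf, the other inhibitory member and a receptor for ceramide and phosphatidylserine, was sparse, with 135 UMIs in obese and 289 in CR over all kept cells, and was higher in CR in all 6 classes with enough UMIs. Fcgr4-high MØs held it at 18.5 CPM in obese (12.6 to 26.1) and 46.4 in CR (38.4 to 55.7), patrolling monocytes at 14.5 (6.65 to 27.6) and 41.3 (21.3 to 72.2), and classical monocytes at 12.1 (8.5 to 16.6) and 38.7 (28.4 to 51.7). These 3 classes overlapped in both libraries, so no order among them is shown. In Apoe-high MØs the level was 0.649 CPM in obese, from 5 UMIs, and 14.2 in CR, from 25. With no CPM added this is 21.8-fold (8.21 to 73.1). Lipid-associated MØs (5 and 4 UMIs) and resident MØs (2 and 3 UMIs) held too few to be measured.

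Calls past 2-fold for Cd300lf, all higher in CR, were made in classical monocytes (log2 ratio 1.36), patrolling monocytes (1.25), Fcgr4-high MØs (1.13), Apoe-high MØs (1.76) and cycling cells (2.03). The call in patrolling monocytes came from 9 UMIs in obese and 12 in CR, and there the intervals of the libraries overlapped. B cells, the sixth class with enough UMIs, gave 0.61. With 20 CPM added, the ratio was 0.87 in classical monocytes, 0.83 in patrolling monocytes, 0.79 in Fcgr4-high MØs and 0.73 in Apoe-high MØs, none past 2-fold, and without alignment it was 0.57 in Fcgr4-high MØs and 0.76 in classical monocytes. Over all MØ classes the level was 2.21 CPM in obese and 24.01 in CR, a 10.9-fold ratio with no CPM added (7.72 to 15.5). The mean CPM of the 4 MØ classes of 50 cells, called equal weight here and below, gave a log2 ratio of 1.12 instead of 2.01. In such a mean a class of high level weighs most. Fcgr4-high MØs were 6.33% of kept cells in obese and 14.96% in CR, and 333 of 2452 MØs in obese and 447 of 991 in CR. Among MØs with no Fcgr4 UMI there was 1 Cd300lf UMI in each library. Classical monocytes held 13.3 CPM in obese (7.59 to 21.6) and 42.7 in CR (23.9 to 70.4) among cells with no Fcgr4 UMI, and 11.3 (6.99 to 17.3) and 37.1 (25.2 to 52.6) among cells with one, so the libraries did not overlap on either side of that split.

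Cd300lf was also found in lymphocytes. NK cells held 11.7 CPM in obese (5.82 to 20.9) and 15.2 in CR (4.93 to 35.5), and B cells 9.87 (5.10 to 17.2) and 17.6 (9.39 to 30.2). T cells held 0.357 (0.00904 to 1.99) and 2.42 (0.499 to 7.07). The obese levels in NK and B cells were 527% and 446% of the level over all MØ classes of that library, where Lyz2 stood at 14.0% and 26.9%. They came from 11 and 12 UMIs in 5.14% and 4.61% of cells, against 0.173% of T cells at like depth (medians of 3500, 3982 and 3517 UMIs per cell). Intervals of NK and B cells did not overlap that of T cells in obese, and in CR that of B cells did not.

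Cd300e, an activating receptor that marks patrolling monocytes, was past 2-fold higher in CR in more classes than any other member. Fcgr4-high MØs held the most, at 548 CPM in obese (514 to 584) and 815 in CR (780 to 851), with a Cd300e UMI in 78.1% and 92.6% of cells. After every cell had been thinned to 1500 UMIs these shares were 49.2% and 66.9%. Patrolling monocytes came next in obese at 257 CPM (218 to 300) and stood at 372 in CR (305 to 449). In both classes the libraries differed by less than 2-fold, with log2 ratios of 0.57 and 0.53. Fcgr4-high MØs gave 56.5% of all Cd300e UMIs in obese and 56.1% in CR.

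In the other monocyte and MØ classes, and in cycling cells, Cd300e was lower in obese than in these. It was past 2-fold higher in CR in each of them that held 50 cells of both libraries. The cycling class is named by genes of division alone. In Apoe-high MØs, the largest class in obese, it stood at 21.0 CPM in obese (17.9 to 24.5) and 333 in CR (307 to 361), a 15.9-fold ratio (13.3 to 19.0). Cycling cells had 33.8 and 366 CPM (10.8-fold), resident MØs 10.7 and 97.2 (9.08-fold), classical monocytes 20.2 and 81.7 (4.04-fold) and lipid-associated MØs 4.61 and 23.3 (5.05-fold). Every one of these 5 classes was past 2-fold, and type 2 dendritic cells were too, at 23.9 and 72.8 CPM. Lipid-associated MØs lay below T cells (9.64 and 33.0 CPM) in both libraries, so that nothing was left of Cd300e there once the T cell level was subtracted. The call was thereby lost. Median depth was 12492 and 9230.5 UMIs in lipid-associated MØs against 3517 and 2658.5 in T cells, so that subtraction cannot tell whether these MØs held Cd300e of their own. Migratory dendritic cells, at 28.2 and 33.4 CPM, were not past 2-fold (1.18-fold, 0.52 to 2.60). The order of classes also changed, since Apoe-high MØs, far below patrolling monocytes in obese, overlapped in CR with cycling cells and patrolling monocytes. The activated MØs, with 42 CR cells, had 5.39 and 145 CPM and were not called.

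Fcgr4, an Fc receptor for IgG and the leading marker of the Fcgr4-high class, moved in the same classes. Its level was 196 CPM in obese and 1781 in CR in Apoe-high MØs, 144 and 1322 in cycling cells, 114 and 591 in resident MØs, and 3169 and 4793 in Fcgr4-high MØs. All 9 markers of the Fcgr4-high class were found in Apoe-high MØs of both libraries, with a summed level of 824 CPM in obese and 3610 in CR. Among Apoe-high MØs with no Fcgr4 UMI, Cd300e stood at 6.91 CPM in obese (403 cells) and 27.0 in CR (53 cells), and among those with one at 29.5 (600 cells) and 395 (241 cells). The share of Apoe-high cells with a Cd300e UMI was thus 4.22% and 13.2% without Fcgr4, and 12.2% and 65.1% with it. Of all MØs, 54.6% in obese and 84.9% in CR had an Fcgr4 UMI, and of these cells 27.1% and 73.1% had a Cd300e UMI. An Fcgr4 UMI was not limited to monocytes and MØs, and depth was not made equal before the split. It was found in 7.89% of obese and 23.1% of CR fibroblasts or preadipocytes, and in 19.8% and 21.7% of B cells. In the endothelial class the shares went the other way, at 34.8% and 18.5%. The splits may therefore not sort cells alike in the 2 libraries and cannot separate composition from level. The part of class composition in the Cd300e ratios was not tested.

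How cells are placed bears on the sizes. With each cell assigned on its own to the class of its best marker score, the log2 ratio of Cd300e in Apoe-high MØs was 1.06 instead of 3.70 and in Fcgr4-high MØs 0.07 instead of 0.57. The same assignment gave 0.19 in type 2 dendritic cells, 0.52 in classical monocytes and 0.91 in lipid-associated MØs, where the calls were lost. Without the cells of the highest doublet scores the latter value was 1.05, past 2-fold. Without alignment of the libraries no cluster was named Apoe-high, the value in Fcgr4-high MØs was 0.04, and that in classical monocytes turned to -0.12 from 1.78. Taken over all MØ classes, which does not depend on the borders between them, Cd300e was at 59.3 CPM in obese (55.9 to 62.8) and 436 in CR (420 to 453), a log2 ratio of 2.78. This ratio was 1.75 among cells with no Fcgr4 UMI, past 2-fold. With equal weight for each class it was 1.09, just past 2-fold, from mean levels of 146 and 317 CPM. Fcgr4-high MØs, at 548 and 815 CPM, weigh most in these means, and the value does depend on the borders between classes. These Fcgr4-high cells were 333 of 2452 MØs in obese and 447 of 991 in CR. In T cells, which were past 2-fold, Cd300e was at 16.3% of the MØ level in obese and 7.57% in CR, beside 17.6% and 6.42% for Lyz2. B cells stood higher, at 44.4% and 19.9% (26.3 and 86.9 CPM).

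**Figure D3:**
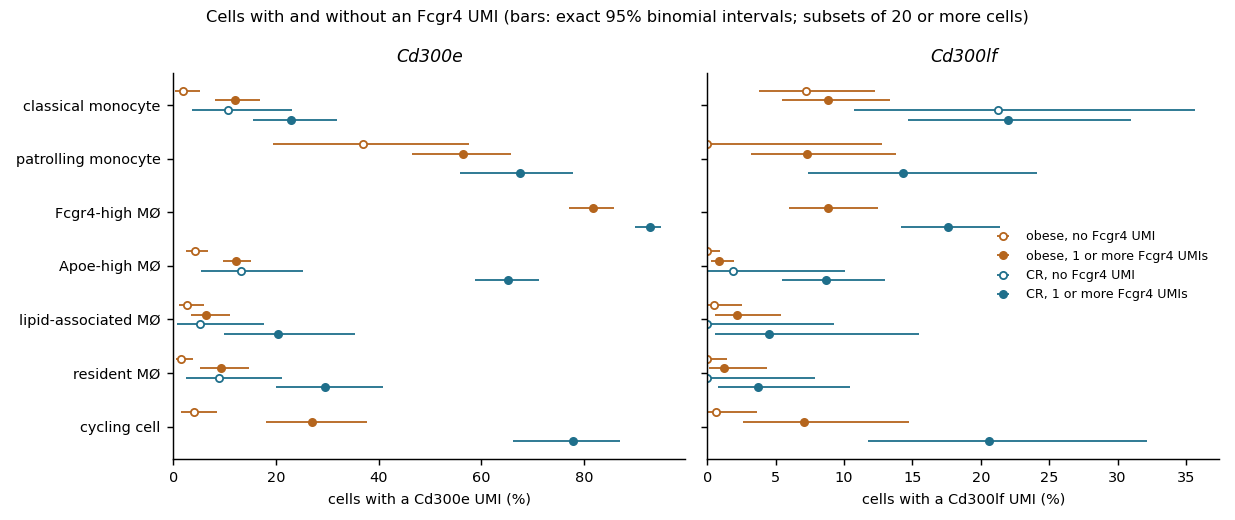
Share of cells with a Cd300e UMI (left) or a Cd300lf UMI (right) in 7 classes of monocytes, MØs and cycling cells, split by library and by whether the cell had an Fcgr4 UMI, with exact 95% binomial intervals and without subsets of under 20 cells. Among Apoe-high MØs with Fcgr4, 12.2% of obese and 65.1% of CR cells had a Cd300e UMI, and of classical monocytes 7.23% and 21.3% had a Cd300lf UMI without Fcgr4 and 8.85% and 22.0% with it.

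Cd300lb, an activating receptor that signals through Tyrobp, was highest in lipid-associated MØs of both libraries and past 2-fold lower in CR in Fcgr4-high MØs. In lipid-associated MØs it was at 88.1 CPM in obese (80.4 to 96.4) and 86.2 in CR (67.7 to 108), a log2 ratio of -0.03, and overlapped with patrolling monocytes. With every cell thinned to 1500 UMIs, the CR level there was 32.5 CPM, from very few UMIs, and 11.9% of obese against 4.88% of CR cells had a UMI. Over the alternatives the log2 ratio in lipid-associated MØs ran from -1.25, past 2-fold lower, to 0.17. Apoe-high MØs had 71.9 and 42.5 CPM, classical monocytes 54.2 and 32.8, patrolling monocytes 69.4 and 51.6, and resident MØs 44.3 and 32.8. None of these was past 2-fold, and the intervals of the libraries did not overlap in Apoe-high MØs and in classical monocytes. Fcgr4-high MØs had the largest difference among monocyte and MØ classes, at 33.5 CPM (25.4 to 43.2) from 58 UMIs and 11.1 (7.39 to 16.1) from 28 UMIs, a log2 ratio of -1.25, and were past 2-fold.

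Lyz2 in Fcgr4-high MØs stood at 5196 CPM in obese and 466 in CR beside this. With the T cell level of each library subtracted, the log2 ratio of Cd300lb in Fcgr4-high MØs was -0.78 and no longer past 2-fold, nor was it as a mean of per-cell CPM (-0.92). Across MØ classes Cd300lb was at 66.3 CPM in obese and 34.6 in CR, a log2 ratio of -0.85, and of -0.42 with equal weight for each class. Over all kept cells it was past 2-fold at -1.05 (45.8 and 19.5 CPM). Type 1 dendritic cells held 1.63 and 0.758 CPM, from 6 and 1 UMIs.

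Cd300ld, an activating receptor that pairs with the Fc receptor gamma chain, was highest in patrolling monocytes, at 226 CPM in obese (190 to 267) and 169 in CR (125 to 223). Resident MØs had 150 and 131 CPM, Apoe-high MØs 125 and 76.0, classical monocytes 79.0 and 65.7, lipid-associated MØs 66.2 and 79.2, and Fcgr4-high MØs 66.9 and 35.7. Libraries did not overlap in Apoe-high (log2 ratio -0.68) and Fcgr4-high MØs (-0.82), and no monocyte or MØ class was past 2-fold. Over the alternatives the Apoe-high ratio ran from -1.02 to 0.24 and the Fcgr4-high ratio from -1.07 to -0.54. Both were thus past 2-fold lower at their lowest, and the sign in Apoe-high MØs was not stable. Across MØ classes the log2 ratio of Cd300ld was -0.54 (102 and 68.9 CPM), and 0.071 among cells with no Fcgr4 UMI. The receptor was near 0 in type 1 dendritic cells (3.81 and 1.52 CPM) and at 39.8 and 45.6 in type 2.

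**Figure D4:**
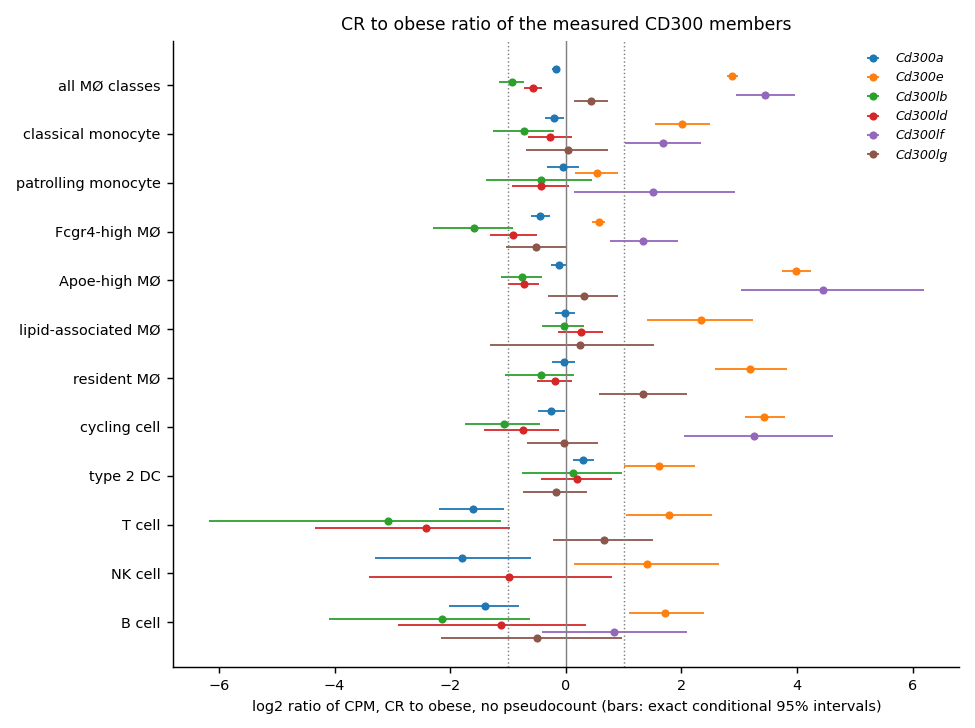
Ratio of CR to obese CPM (x axis, log2, no CPM added) of each measured member in all MØ classes and in 11 classes, with exact conditional 95% intervals, a line at no difference and dotted lines at 2-fold. Cd300e and Cd300lf lie right of 0 in every class where they are shown, Cd300a lies near 0 in myeloid classes, and Cd300a, Cd300lb and Cd300ld lie left of 0 in lymphocytes.

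By class, the counts past 2-fold were 2 of 6 measured members in classical monocytes (3.16% of all genes), 1 of 5 in patrolling monocytes (5.79%) and 2 of 6 in Fcgr4-high MØs (3.55%), with Cd300lf higher and Cd300lb lower. They were 2 of 6 in Apoe-high MØs (3.54%), 1 of 5 in lipid-associated MØs (2.16%), 2 of 5 in resident MØs (4.75%), 2 of 6 in cycling cells (5.95%) and 1 of 5 in type 2 dendritic cells (2.67%). Apart from Cd300lb in Fcgr4-high MØs, each of these was higher in CR and was Cd300e, Cd300lf or, in resident MØs, Cd300lg. No member was past 2-fold in opposite directions in any 2 classes.

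Cd300lg, the endothelial member, marked the endothelial class. In CR, 216 endothelial cells held it at 936 CPM (880 to 995), with a UMI in 85.2% of cells, and gave 73.8% of all Cd300lg UMIs of that library. The level over all kept cells was 21.0 CPM in obese and 80.2 in CR, past 2-fold at a log2 ratio of 1.71, and the endothelial class was 0.874% of kept cells in obese and 7.23% in CR. Cldn5, a tight junction gene of endothelium, went from 14.5 to 317 CPM over the same cells. The sort was for CD45+ cells, which endothelium lacks.

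Cd300lg was also found in leukocytes. Type 2 dendritic cells had 57.0 CPM in obese (46.0 to 69.8) and 50.6 in CR (36.3 to 68.6), with a UMI in 33.5% and 30.3% of cells. In the obese cells Cldn5 stood at 0.612 CPM, from 1 UMI, and the 9 endothelial markers summed to 4.90 CPM with 4 of them at 0, whereas in the CR cells all 9 were found, at a sum of 93.7 CPM. Fcgr4-high MØs held 38.1 and 26.6 CPM and cycling cells 36.3 and 35.4, against 10.7 and 16.9 in T cells and 2.12 in obese NK cells. Intervals of these 3 classes did not overlap that of T cells in obese, and in CR those of Fcgr4-high MØs and cycling cells did. With T cells subtracted, Fcgr4-high MØs had 27.4 and 9.67 CPM, a log2 ratio of -1.14 and past 2-fold lower, against -0.45 as counted. Cd300lg in patrolling monocytes, at 9.69 and 13.8 CPM from 6 and 4 UMIs, was within the T cell range.

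Resident MØs were past 2-fold higher in CR for Cd300lg, at 12.1 CPM in obese and 30.6 in CR (log2 ratio 1.06). The call was lost under several alternatives, with 0.052 for cells assigned singly, 0.10 with no filter and 0.16 with no alignment. Cldn5 in those cells stood at 1.79 CPM in obese and 422 in CR, and the 9 endothelial markers summed to 10.7 and 799 CPM, where Tie1 was at 0 in obese. In the other monocyte and MØ classes with 50 cells the CR sum was between 85.0 and 158 CPM. Fibroblasts or preadipocytes were likewise past 2-fold, at 6.84 and 21.0 CPM, with 5 UMIs in obese. The part of endothelial RNA in these differences was not tested.

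Of the other genes of the CD300 cluster, only AF251705 was abundant. It is annotated as Cd300c2, an activating receptor, and was at 678 CPM in obese and 699 in CR in patrolling monocytes, 585 and 561 in Fcgr4-high MØs, and 366 and 475 in Apoe-high MØs, and was past 2-fold in no monocyte, MØ or dendritic class and lower in CR in fibroblasts or preadipocytes (log2 ratio -1.17) and in the unnamed class (-1.41). Cd300c was at most at 3.44 CPM in monocytes and MØs of 50 cells, and stood at 15.2 and 6.82 CPM in type 1 and 13.5 and 14.8 in type 2 dendritic cells. Plasmacytoid dendritic cells, only 32 and 15 cells, had 168 and 128 CPM of it. Cd300lh, Gm11709, Gm11710 and Gm11711 (annotated as Cd300ld3, Cd300ld2, Cd300ld4 and Cd300ld5) had at most 85 UMIs in a library. Some of the 98-base stretches in their last 500 bases occur in another of these 4 genes, from 19.9% for Gm11709 to 100% for Cd300lh and Gm11711, so their counts are uncertain to that degree. No such stretch was shared for Cd300a, Cd300e, Cd300lb, Cd300ld or Cd300lg, and 2.46% were for Cd300lf.

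Members fell into 3 sets by their levels over 32 points, 1 for each class and library with at least 50 cells. Pearson correlations of log2 CPM were 0.87 between Cd300a and Cd300lb, 0.87 between Cd300a and Cd300ld and 0.85 between Cd300lb and Cd300ld, and 0.82 between Cd300e and Cd300lf. The correlation of any of the first 3 with Cd300e or Cd300lf was between 0.21 and 0.44, and of Cd300lg with any member at most 0.20. The points share 2 libraries and their depth, so these values are descriptions. Among 5815 other genes, those most like Cd300a included Igsf6 (0.96) and Lrrc25 (0.92), and those most like Cd300e were Fcgr4 (0.96), Gk (0.95) and Sirpb1a (0.92). Dpep2 (0.92), Csf1r (0.91) and Fcgr3 (0.90) came first for Cd300lb, and Csf1r (0.94), Zeb2os (0.93) and Igsf6 (0.91) for Cd300ld. For Cd300lf they were Klra2 (0.85), Gk (0.83) and Fcgr4 (0.82), and for Cd300lg Kank3 (0.84), Trim37 (0.83) and Mllt4 (0.82).

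Partners of the receptors did not all go the same way over all MØ classes, where the median log2 ratio of all 11522 genes was 0.10, with 3.36% of them past 2-fold higher and 0.477% lower. Fcgr4-high MØs were 333 of 2452 of these cells in obese and 447 of 991 in CR, and the part of this in the ratios was not tested. None of 3 adaptors was past 2-fold. Tyrobp was at 3529 CPM in obese and 3230 in CR, and Fcer1g at 4212 and 7959 (log2 ratio 0.92). Among the phosphatases and kinases that act after these receptors, Ptpn6, the phosphatase of the inhibitory members, was past 2-fold higher in CR (211 and 516 CPM, log2 ratio 1.27), and so was the Src family kinase Fgr (37.3 and 124, 1.60).

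Of 5 measured receptors for lipids or CD300 ligands, 1 was past 2-fold lower and none higher, with a median of -0.33. It was Cd36, a scavenger receptor for fatty acids (1204 and 565 CPM, -1.08). Of 15 other paired receptors of myeloid cells, 4 were past 2-fold higher and none lower, with a median of 0.27. They were Sirpb1a (54.4 and 362 CPM, 2.63), Sirpb1b (45.9 and 218, 2.13), Sirpb1c (92.3 and 275, 1.52) and Siglece (38.5 and 130, 1.64), and the Sirpb1 genes are close copies whose reads may be split. In Fcgr4-high MØs no gene of these last 2 lists was past 2-fold higher, and Cd36 (-1.61) and Trem2 (-1.04), a lipid receptor, were lower. Apoe-high MØs had Fgr, the 3 Sirpb1 genes and Siglece past 2-fold higher. Patrolling monocytes had Trem1 alone (1.01).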

How the data were processed

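Transcripts of single CD45+ cells were read in 1 obese and 1 CR library made with a 3′ droplet kit. The authors ran Cell Ranger against mm10, and the deposited counts are whole UMIs per gene and barcode, before their removal of outlying cells. No normalised values were used.

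Cells needed 200 genes and were dropped above 3 scaled MADs (median absolute deviations) over the median of their library in mitochondrial share or log10 UMIs. Each cell was brought to a sum of 10000 and logged, and variable genes (1000 per library, intersected, CD300 genes removed, leaving 690) were aligned by canonical correlation (25 vectors) and clustered by Louvain (30 neighbours, resolution 1). Of 22 clusters, 21 were named, from 3 or more markers at least 2-fold higher, and 1, led by Tpsb2, Cma1, Cpa3, Mcpt4 and Il17a, was not. Doublets were left in, and an alternative left out the 5% with the highest scores. UMIs were summed per class and library. Genes needed 20 UMIs in both libraries together and classes 50 cells in each. Intervals are exact Poisson, binomial or conditional binomial at 95%. Cells are not replicates, so no test was made. Genes named from the pathway lists were those past 2-fold with at least 50 CPM, otherwise the 2 most abundant of a list, and for each member the 3 genes of highest correlation. Some genes that this rule names, and the counts that need them, are not reported here.

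The members, lists and comparisons were chosen with earlier results of these data known. Only the ratios, calls and intervals were tested on simulated Poisson sums of the Apoe-high class. The known changes were a log2 ratio of 2 either way, in genes of at least 50 CPM. Filtering, alignment, clustering and naming were not part of that test. Python 3.11.15, numpy 2.4.6, scipy 1.17.1, python-igraph 0.11.9, scanpy 1.11.5 and matplotlib 3.10.9 were used.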

Additional observations from a re-analysis of the deposited data

Results flagged for a closer look

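Cd300lg in the obese endothelial class, of 46 cells and so below the 50 cells asked of a class, was at 410 CPM (340 to 490), above its level in every obese class of 50 cells or more, of which the highest was 57.0 CPM in type 2 dendritic cells. It was measured outside the comparisons. The same cells held Cldn5 at 1762 CPM and Cd300a at 242 CPM, against 4267 and 18.0 in CR, and the 9 markers of Apoe-high MØs summed to 23824 CPM there and 4166 in CR. The part of macrophage RNA in these cells was not tested.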

How the results depend on the processing

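No paired analysis was possible because each group is 1 library, so the 2 groups share only 1 replicate number. The alternatives were 18, of which 15 were planned and 3 (cells with no Fcgr4 UMI, equal weight per MØ class, T cell level subtracted) were chosen after seeing the data, as were the counts over pathway lists. Log2 ratios over all kept cells were as follows. With 1 CPM added, Cd300e gave 2.29, Cd300lf 2.00 and Cd300lg 1.88. With 20 CPM added, Cd300e gave 1.88, Cd300lb -0.74, Cd300ld -0.59, Cd300lf 0.64 and Cd300lg 1.29. By mean per-cell CPM, Cd300e gave 1.73, Cd300ld -0.90 and Cd300lg 1.84. In cells thinned to 1500 UMIs, Cd300e gave 1.69, Cd300lb -1.24 and Cd300lg 1.91. In cells with no Fcgr4 UMI, Cd300a gave -0.85, Cd300e 0.97, Cd300ld -1.04, Cd300lf 0.67 and Cd300lg 2.23.

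Over all MØ classes, Cd300lf gave 2.96 with 1 CPM and 0.99 with 20 CPM. Cd300e gave 2.53 with 20 CPM, 2.31 by per-cell CPM, 2.34 thinned, 2.60 with no filter, 2.94 with no alignment and 3.06 with cells assigned singly. Cd300ld gave -0.69 by per-cell CPM and Cd300lb -1.17 thinned. With no Fcgr4 UMI, Cd300a gave -0.044, Cd300e 1.75, Cd300lb -0.14, Cd300ld 0.071 and Cd300lf 0.25, the last from too few UMIs to count as measured. With equal weight, Cd300e gave 1.09, Cd300lb -0.42, Cd300ld -0.32 and Cd300lf 1.12. With the T cell level subtracted, Cd300a gave 0.066, Cd300e 2.90, Cd300lb -0.60 and Cd300ld -0.35. Cd300e in classical monocytes reversed to -0.12 with no alignment. The cause was not tested.

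Member and class pairs past 2-fold, higher and lower in CR, were 18 and 10 as reported, 8 and 4 with 20 CPM, 7 and 5 thinned, 11 and 5 with no alignment, 11 and 6 with cells assigned singly, 5 and 2 with at least 100 UMIs and 3 and 5 with no Fcgr4 UMI, where fewer cells remain. Pathway list pairs that were higher numbered 30 as reported, 17 with no alignment, 19 with cells assigned singly and 2 with no Fcgr4 UMI, and lower ones 35 as reported, 20 with 20 CPM, 17 thinned, 55 with 5 MADs, 18 with no alignment, 14 with cells assigned singly and 19 with at least 100 UMIs. The pairs measured and the share of all genes past 2-fold under each alternative are not given here. A lower count may therefore reflect fewer measured pairs.

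Levels moved too. In Fcgr4-high MØs, obese Cd300e was 615 CPM thinned, 748 with no alignment, 499 with 2000 variable genes and 748 with cells assigned singly, CR Cd300e 768 with no alignment, Cd300lf 37.3 (CR) thinned and 26.9 (obese) with no alignment. Cd300lb in lipid-associated MØs was 32.5 (CR) thinned, and 78.6 (obese) and 56.0 (CR) at a resolution of 0.6, and endothelial Cd300lg in CR 1006 thinned and 802 with no alignment. The other 202 values of these kinds moved by less than their counting interval or, for counts, by less than 1.5 times. Among further values followed, 62 moved by more than that and 581 did not, and not all of the 62 are listed here. The log2 ratio of Cd300lb in cycling cells, for example, ran from -1.94 to -0.40 over the alternatives.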
